A study of Mus musculus with 12 samples.

Results

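Carbonic anhydrases are zinc enzymes that convert carbon dioxide and water into bicarbonate and a proton, and back. In red cells the cytosolic enzymes work beside the band 3 anion exchanger, so that carbon dioxide from the tissues is carried in the plasma as bicarbonate. Car2 encodes the fast cytosolic enzyme, which red cells share with osteoclasts and kidney cells. Car1 encodes a slower cytosolic enzyme of red cells and gut epithelium. Car3 encodes a cytosolic enzyme of low activity known from muscle, liver and fat, and Car13 a further cytosolic enzyme.

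These 4 genes were followed in RNA-seq libraries of G1E-ER4, an immature erythroid cell line of the mouse. It goes back to embryonic stem cells without GATA-1 and carries this factor as a fusion with the estrogen receptor. Adding β-estradiol (E2) switches on the fusion and with it red cell differentiation. The 12 libraries form 4 groups of 3. TMG_E2 cells received 10 µM Thiamet-G (TMG), an inhibitor of the enzyme OGA that takes O-GlcNAc off proteins, together with 1 µM E2. E2 cells received 1 µM E2 alone, TMG cells 10 µM TMG alone and Ctrl cells neither, with 30 h of treatment. All groups, Ctrl included, were grown with erythropoietin, stem cell factor and puromycin at passage 35 to 40. No group holds cells without the fusion that were given E2, so effects of E2 outside the fusion cannot be told apart from those of GATA-1.

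The 4 members are matched by symbol and make up 4 of the 16 carbonic anhydrase genes among the 32699 genes of the files. They were chosen by name with results of these data known, and which measured values were used is not stated. A response to E2 can be among them, so the members' values in the comparisons with E2 are given as description, without a test. Of the 4 members, 2 (Car1 and Car2) passed the expression filter of more than 10 CPM in at least 2 libraries (CPM are counts scaled to a common library size), and Car3 and Car13 did not. Car1 passed only through libraries without E2, so that a lower value with E2 was favoured. The deposited counts of all 4 members were whole numbers in all 48 values (within 0.005).

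Libraries held 17589380 to 23178721 expected counts, where 3 counts correspond to 0.133 to 0.180 CPM. Over the 8273 genes kept, 94.2% of the variance lay on principal component 1. The labels call the cells embryonic stem cells, but Pou5f1, Sox2, Zfp42 and Dppa3 had 0 counts in all 12 libraries and the 6 markers of that list summed to at most 0.281 CPM. The 6 erythroid markers, Alas2, Slc4a1, Epor, Klf1 and Gata1 among them, all passed the filter and summed to 4044 to 4337 CPM in TMG_E2, 4347 to 4620 CPM in E2, 381 to 389 CPM in TMG and 343 to 350 CPM in Ctrl. Of 6 adipocyte markers all were at 0, and 6 skeletal muscle, 6 lymphoid and 6 granulocyte markers summed to at most 0.599, 1.22 and 0.0467 CPM. The megakaryocyte list, with Ppbp and Vwf at 0, summed to 6.75 to 16.6 CPM and no gene of it passed the filter. Whether replicates are separate cultures is not stated, and p-values reflect the spread among these libraries alone, which may be technical. In such bulk samples, fewer cells that express a gene and less RNA per cell cannot be told apart.

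Car2 was by far the most abundant member and was higher wherever E2 was given, with or without TMG. Car2 had 1857, 1792 and 1912 CPM in TMG_E2 and 1812, 1856 and 1836 CPM in E2. It had 871, 879 and 917 CPM in TMG, against 754, 759 and 820 CPM in Ctrl. The libraries with E2 lay above all libraries without it, and the TMG libraries lay above the Ctrl libraries with no overlap. How many of all genes separate in this way was not counted, so the separation is description only. The TMG_E2 and E2 libraries overlapped. The log2 fold change was 1.24 ± 0.04 (SE) for E2 over Ctrl and 1.06 ± 0.04 for TMG_E2 over TMG, which are 2.36-fold and 2.09-fold. Among the 8273 genes kept, 94.0% had a lower fold change in E2 over Ctrl. The response to E2 may have chosen Car2, so this place is description only as well. In a list of macrophage and osteoclast markers, since osteoclasts also use Car2, 1 gene of 6 passed the filter (Acp5). That list summed to 38.6 to 41.5 CPM in TMG_E2, 32.7 to 35.4 CPM in E2, 6.78 to 7.91 CPM in TMG and 5.11 to 6.29 CPM in Ctrl. Of its other genes, Csf1r, Calcr and Ocstamp had 0 counts throughout, while Ctsk had 23 counts and Adgre1 4 over all libraries. The part of Acp5-expressing cells in the Car2 result was not tested.

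Car1 went the opposite way and was nearly absent in both groups with E2. Car1 had 0.806, 0.909 and 1.32 CPM in TMG_E2 and 1.58, 1.22 and 1.47 CPM in E2. It had 97.1, 91.4 and 89.5 CPM in TMG, against 98.5, 91.5 and 96.6 CPM in Ctrl. No library with E2 came near one without it, and within each E2 condition the groups with and without TMG overlapped. The number of all genes that separate by E2 in this way was not counted. The log2 fold change was -6.08 ± 0.09 for E2 over Ctrl and -6.54 ± 0.10 for TMG_E2 over TMG, so that Car1 was 67.5-fold and 93.3-fold lower. Of 8273 genes, 5 had a lower fold change than Car1 in E2 over Ctrl and 4 in TMG_E2 over TMG. Car1 passed the filter only through libraries without E2, and its response to E2 may have chosen it. These places are therefore description only. The residual signal was above the limit that a count of 0 allows: 17 to 22 counts in TMG_E2 libraries and 26 to 29 in E2 libraries.

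Mast cell markers were low in the same libraries as Car1. The 6 mast cell genes summed to 0.321 to 0.659 CPM in TMG_E2, 0.280 to 0.910 CPM in E2, 77.4 to 93.9 CPM in TMG and 76.8 to 100.3 CPM in Ctrl. Of these 6, Il1rl1, Ms4a2 and Cpa3 passed the filter, and Mcpt8 and Tpsb2 had 0 counts in every library. The sum hides opposite directions with TMG alone. Il1rl1 had a mean of 67.3 CPM in TMG and 56.6 in Ctrl, Ms4a2 9.49 and 14.7, and Cpa3 8.41 and 15.2. The part of these mast cell genes in the Car1 result was not tested.

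**Figure D1:**
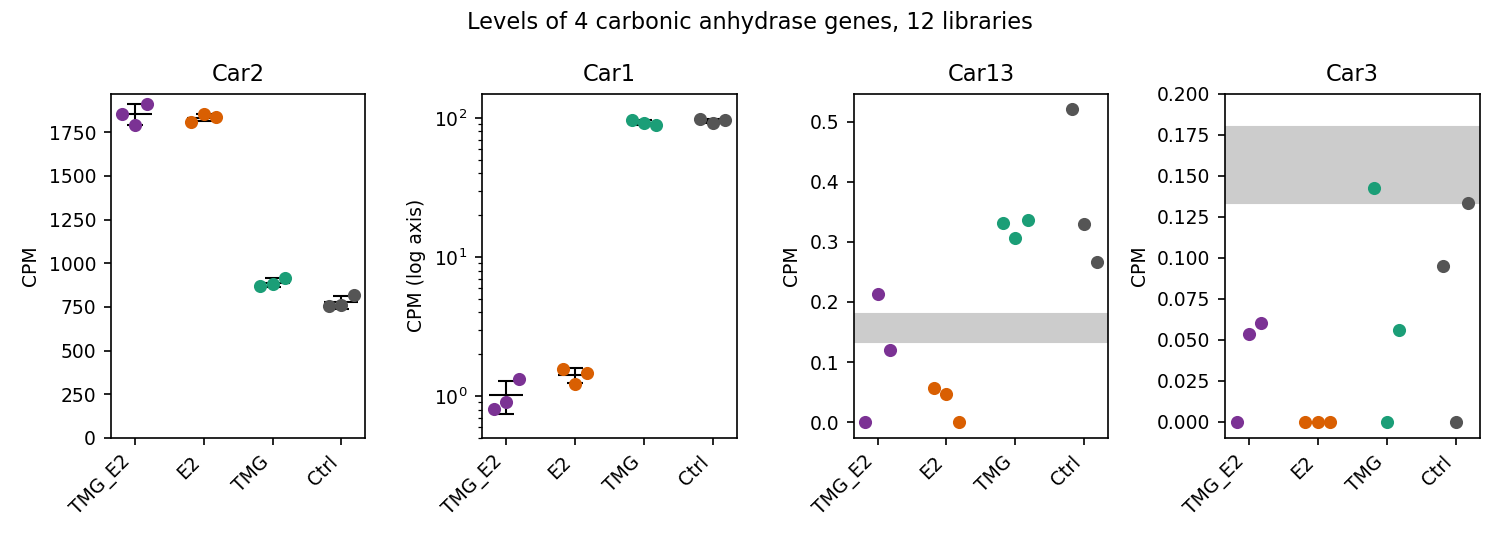
CPM of Car2, Car1, Car13 and Car3 in each library (points) of the 4 groups, with the mean ± SD of 3 libraries for Car2 and Car1; the Car1 axis is logarithmic and the grey band is the level of 3 counts. Car2 lies at 1792 to 1912 CPM with E2 and 754 to 917 CPM without it, Car1 at 0.806 to 1.58 and 89.5 to 98.5 CPM, and Car3 never exceeds 3 counts.

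Car13 was detected at a few counts per library, mostly without E2. It had 0, 4 and 2 counts in TMG_E2, 1, 1 and 0 in E2, 7, 6 and 6 in TMG, and 11, 7 and 6 in Ctrl. Each library without E2 had more counts than each library with it. How many of all genes separate in this way was not counted, so for Car13 too this is description only. Counts pooled over a group and scaled for depth were 10.9-fold lower in E2 than in Ctrl, with an exact 95% interval of 2.71-fold to 95.3-fold, and 3.12-fold lower in TMG_E2 than in TMG, with an interval of 1.20-fold to 9.56-fold. These intervals describe counting error only and are no test of E2, since these values may have chosen the gene. Car13 expressed as a ratio was 0.0916 for E2 over Ctrl and 0.320 for TMG_E2 over TMG, and leaving out single libraries gave 0.0656 to 0.138 and 0.158 to 0.522.

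Car3 was at or near the detection limit in all libraries. It had 0, 1 and 1 counts in TMG_E2, 0, 0 and 0 in E2, 3, 0 and 1 in TMG, and 2, 0 and 3 in Ctrl. No library exceeded 3 counts, so no fold change is given, and any difference between groups was not detectable at this depth.

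On a per-length scale, in the deposited TPM values, which are scaled for transcript length and depth, carbonic anhydrase transcripts were almost all Car2 with E2 and a mix of Car2 and Car1 without it. Car2 had 1536 ± 48.7 TPM in TMG_E2, 1559 ± 7.05 in E2, 837 ± 18.2 in TMG and 756 ± 36.6 in Ctrl (SD, n = 3 each). Car1 had 1.32 ± 0.287 TPM in TMG_E2, 1.91 ± 0.261 in E2, 138 ± 7.43 in TMG and 147 ± 6.53 in Ctrl. Car1 was thus 0.0862% ± 0.0202 of the summed TPM of the 16 genes in TMG_E2 and 0.122% ± 0.0172 in E2, while it was 14.1% ± 0.816 in TMG and 16.3% ± 0.744 in Ctrl. The sum itself was 1540 ± 48.4 TPM in TMG_E2, 1563 ± 7.21 in E2, 977 ± 16.3 in TMG and 906 ± 38.8 in Ctrl. The ratio of Car2 to Car1 was 918 to 1434 in TMG_E2 libraries, 729 to 967 in E2 libraries, 5.67 to 6.48 in TMG libraries and 4.83 to 5.36 in Ctrl libraries. Its ranges overlapped between TMG_E2 and E2 and did not overlap between TMG and Ctrl, which was not tested. By TPM, Car2 stood between places 99 and 103 of all genes in the libraries with E2 and between 153 and 168 in those without.

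**Figure D2:**
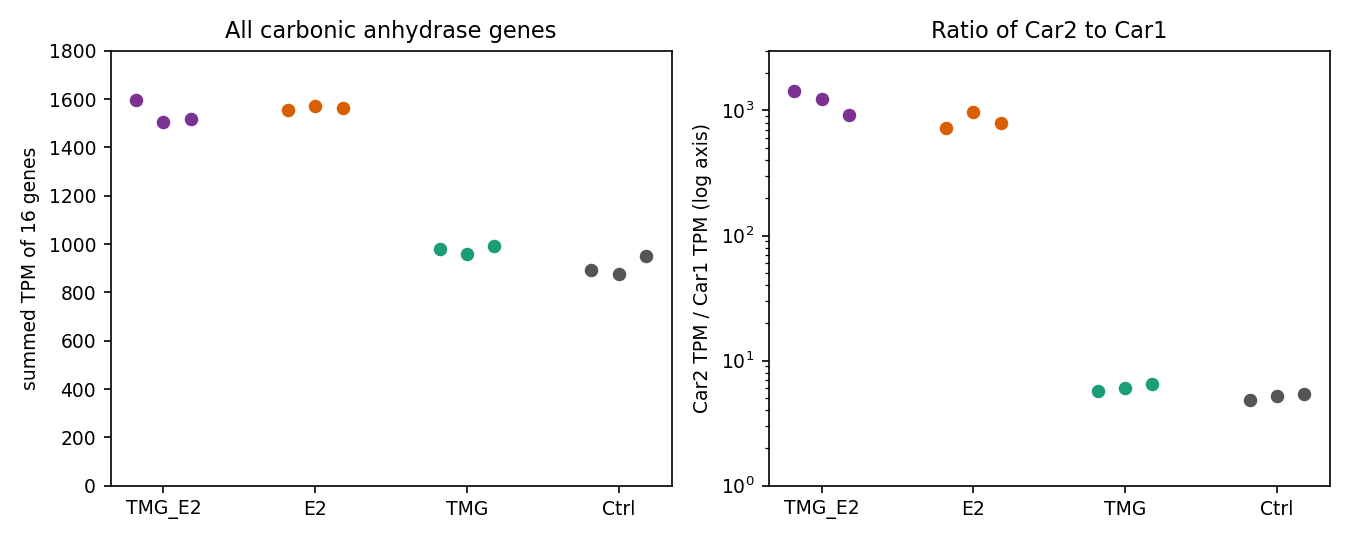
Summed TPM of the 16 carbonic anhydrase genes (left) and the ratio of Car2 to Car1 TPM on a logarithmic axis (right), 1 point per library. The sum is 1506 to 1595 TPM with E2 and 875 to 992 TPM without it, and the ratio is at least 729 with E2 and at most 6.48 without it.

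The other 12 carbonic anhydrase genes were low. Only Car15, a membrane-anchored enzyme, reached 1 CPM in any library. It had 17, 21 and 11 counts in TMG_E2, 11, 24 and 15 in E2, 16, 19 and 23 in TMG, and 14, 28 and 19 in Ctrl, with all groups overlapping. Of the remaining 11 genes, 5 (Car4, Car8, Car9, Car10 and Car12) had 0 counts in all libraries. The other 6 (Car5a, Car5b, Car6, Car7, Car11 and Car14) had at most 10 counts in a library. For the genes at 0, a library's limit was at most 0.180 CPM.

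TMG set against Ctrl addresses raised O-GlcNAc in uninduced cells. Car2 rose modestly with TMG: the log2 fold change was 0.19 ± 0.04, a 1.14-fold rise (edgeR quasi-likelihood test adjusted over all genes, adjusted p = 0.0104). The group means were 889 ± 24.7 CPM in TMG and 778 ± 36.7 CPM in Ctrl (SD, n = 3 each). Car1 was at log2 -0.04 ± 0.05 (edgeR adjusted p = 0.681). Car2 was therefore called and Car1 was not, where 5.15% of all genes tested were called, 3.01% higher and 2.14% lower. These were 249 genes higher and 177 lower, against 179 and 232 with library size as the only scaling. The call of Car2 ended without Ctrl replicate 1 (edgeR adjusted p = 0.0578), without Ctrl replicate 2 (0.0556) or without TMG replicate 3 (0.0532). The log2 fold change was 0.17 to 0.18 in these fits. The adjusted p ranged from 0.000198 to 0.0578 over the alternatives. For Car13, counts pooled over TMG were 0.877 times those over Ctrl, with an exact 95% interval of 0.454 to 1.67. That ratio turned to 1.09 without Ctrl replicate 1 (0.763 to 1.09 without single libraries).

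TMG_E2 set against E2 addresses it in induced cells. Car2 was at log2 0.02 ± 0.04 (edgeR adjusted p = 0.850), with 1854 ± 59.9 CPM in TMG_E2 and 1835 ± 22.1 CPM in E2. That value turned negative with library size as the only scaling (-0.0034) and without TMG_E2 replicate 3 (-0.0092). Car1 was at log2 -0.51 ± 0.22 (edgeR adjusted p = 0.149), with 1.01 ± 0.270 CPM in TMG_E2 and 1.42 ± 0.185 CPM in E2. TMG_E2 replicate 3, at 1.32 CPM, lay within the E2 range, while each TMG_E2 library was lower than the E2 library of the same number in all 3 pairs. How many of all genes do the same was not counted, so these pairs are description only. With the replicate number as a block the log2 fold change of Car1 was -0.52 ± 0.22 (edgeR adjusted p = 0.126). The pooled Car1 counts of 57 in TMG_E2 and 83 in E2 gave a ratio of 0.701, with an exact 95% interval of 0.492 to 0.994 for counting error alone. Neither member tested was called, where 12.8% of all genes were called, 5.61% higher and 7.14% lower. These were 464 genes higher and 591 lower, against 348 and 764 with library size as the only scaling. For Car13, the pooled ratio of TMG_E2 to E2 was 3.06 on 6 and 2 counts, with an exact 95% interval of 0.548 to 31.0 (1.51 to 5.00 without single libraries).

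The interaction, which is the log2 effect of TMG with E2 minus that without E2, was tested directly. It was -0.18 ± 0.06 for Car2 (edgeR adjusted p = 0.185) and -0.47 ± 0.22 for Car1 (edgeR adjusted p = 0.467). Neither was called, where 0.931% of all genes were called, 0.266% higher and 0.665% lower. The rise of Car2 with TMG in uninduced cells is thus not shown to differ from its value in induced cells. Over the alternatives the edgeR adjusted p of Car2 was 0.0590 to 0.389. The 2 TMG comparisons and the 2 E2 comparisons share their libraries with this contrast.

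**Figure D3:**
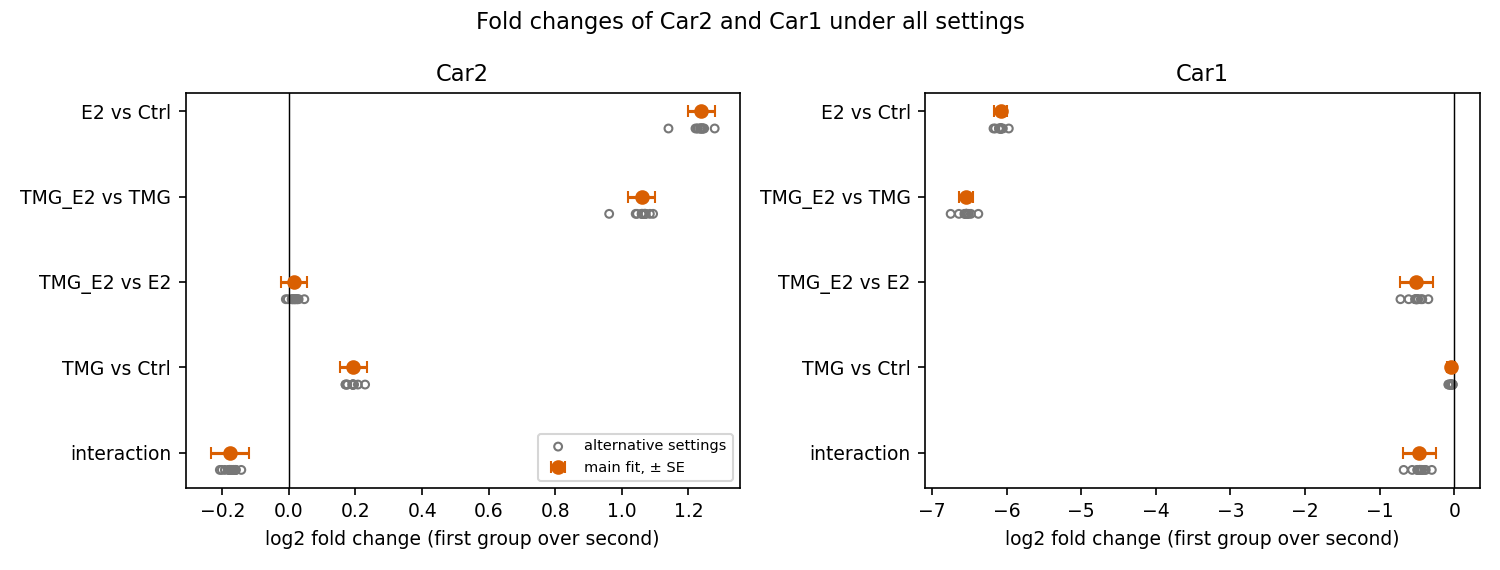
Log2 fold change of Car2 (left) and Car1 (right) in each comparison: filled points are the edgeR fit of all 12 libraries with its SE, and open points are the alternative settings. The comparisons with E2 stay at 0.96 to 1.28 for Car2 and at -6.75 to -5.97 for Car1, and TMG over Ctrl is at 0.19 for Car2 and -0.04 for Car1, while TMG_E2 over E2 is at 0.02 for Car2 and -0.51 for Car1.

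The 4 members lie together on mouse chromosome 3, in the order Car13 (14641727 to 14663002), Car1 (14766214 to 14808365), Car3 (14863538 to 14872381) and Car2 (14886269 to 14900770). These are RefSeq positions in GRCm38, the files' own build, and the cluster spans 259 kb. The gene with a large fall and the gene with a rise under E2 thus lie in the same cluster, and Car3, listed between them, was at the detection limit in all groups. Of 20 other annotated genes and pseudogenes within 500 kb of the cluster, 9 were in the files and 3 passed the filter, all on the Car13 side. Lrrcc1, which encodes a centrosomal protein, fell with E2 (log2 -0.39 ± 0.07, edgeR adjusted p = 5.53e-05), with 19.2 ± 0.722 CPM in E2 and 25.1 ± 0.797 CPM in Ctrl. E2f5, a transcription factor of the E2F family, fell with E2 (log2 -0.83 ± 0.08, edgeR adjusted p = 4.60e-08), with 8.28 ± 0.480 CPM in E2 and 14.8 ± 0.715 CPM in Ctrl. Rbis, a ribosome biogenesis factor listed in the files under an older symbol, was at log2 -0.14 ± 0.06 (edgeR adjusted p = 0.0352). Of all genes tested, 82.7% were called in E2 over Ctrl, 41.2% lower, so these calls do not set the neighbours apart. In TMG_E2 over TMG the values were -0.49 ± 0.07 for Lrrcc1, -0.96 ± 0.08 for E2f5 and -0.13 ± 0.06 for Rbis, the last with an edgeR adjusted p of 0.0518. There 82.7% of all genes were called, 41.8% lower. None of the 3 was called for TMG in either setting, with edgeR adjusted p of 0.312 to 0.951. Of all genes, 5.15% were called in TMG over Ctrl and 12.8% in TMG_E2 over E2, so this count says nothing about the neighbours. The other 6 neighbours in the files (Ralyl, Gm6300, Slc7a12, A930001A20Rik, Gm9733 and Sirpb1a) reached at most 0.0535 CPM.

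**Figure D4:**
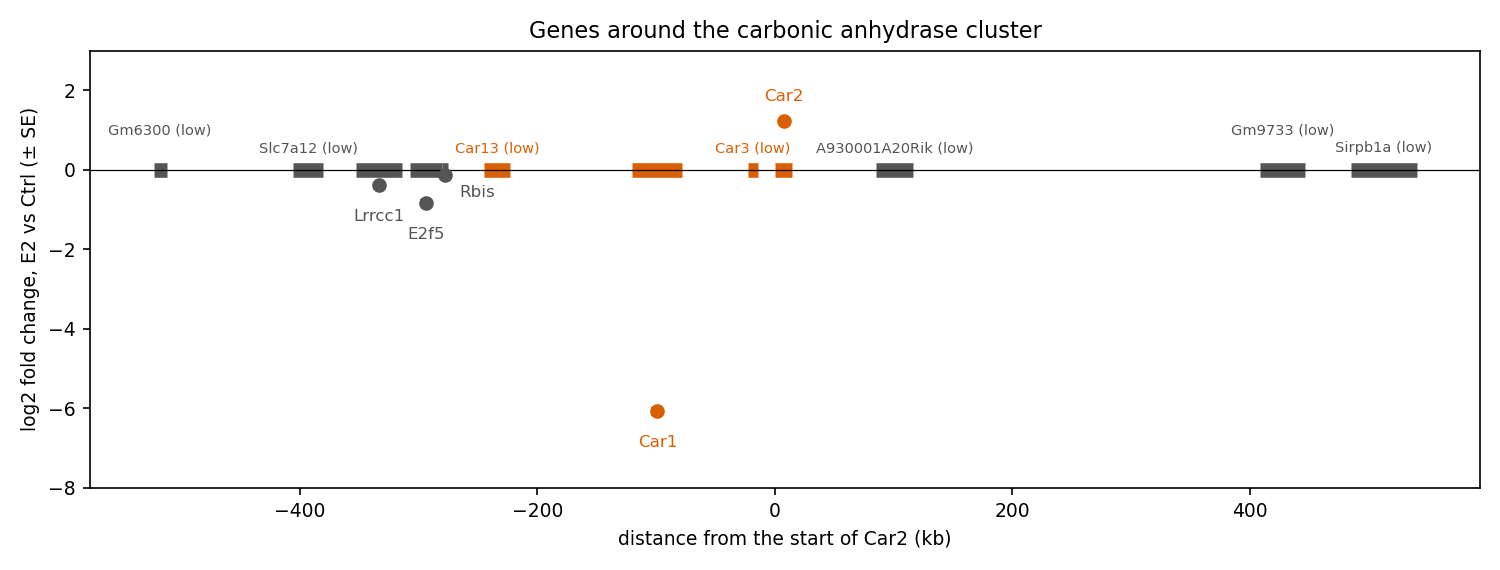
Genes of the files around the carbonic anhydrase cluster (bars, orange for the 4 members), by distance from the start of Car2 in kb, with the log2 fold change of E2 over Ctrl ± SE for those that passed the filter. Car1 is at -6.08 and Car2 at 1.24, and the 3 neighbours that passed are at -0.83 to -0.14. Such values may have chosen the members, so their difference from the neighbours is description only. Genes marked low did not pass, and Ralyl, at 0 counts, lies beyond the left edge.

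Genes that move carbon dioxide, bicarbonate, protons and water across membranes were examined as the partners of these enzymes. All 37 genes of the list were in the files and 17 passed the filter. With E2 over Ctrl 11 of 17 rose and 5 fell (64.7% and 29.4%), where 82.7% of all genes tested were called, 41.5% higher and 41.2% lower. The median log2 fold change was 0.44 in the list and -0.00076 over all genes. Slc4a1 and Aqp3 passed the filter only through libraries with E2, and Slc26a1 and Aqp11 only through libraries without it, which favours the direction of each. Without these 4 genes, in a tally added after the data were seen, 9 of 13 rose and 3 fell. Slc4a1, the band 3 exchanger of chloride and bicarbonate, rose most (log2 10.88 ± 0.10), with 2226 ± 108 CPM in E2 and 1.17 ± 0.131 CPM in Ctrl. Aqp3, a water and glycerol channel, had 94.1 ± 4.87 CPM in E2 and 7.30 ± 0.366 CPM in Ctrl (log2 3.69 ± 0.07). Rhd, the Rh blood group protein, rose too (log2 2.31 ± 0.08), as did Rhag, the Rh-associated channel for ammonia and carbon dioxide (log2 1.53 ± 0.04).

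The 5 genes of this list that fell with E2 included a lactate carrier and an anion transporter. Slc9a3r1, a membrane scaffold protein, fell to 28.3 ± 2.43 CPM in E2, against 169 ± 12.2 CPM in Ctrl (log2 -2.58 ± 0.07). Slc16a1, the proton-coupled lactate carrier MCT1, fell to 78.0 ± 3.77 CPM in E2, against 198 ± 6.50 CPM in Ctrl (log2 -1.35 ± 0.05). Slc26a1, a sulfate and anion transporter, was at log2 -2.09 ± 0.12, and Aqp11, an intracellular water channel, at -1.32 ± 0.08. Slc4a2, a widely expressed anion exchanger, was at log2 -0.01 ± 0.06 (edgeR adjusted p = 0.832). Aqp1, the water channel of mature red cells, had 0 counts in all libraries.

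In TMG_E2 over TMG 10 of 17 genes of the list rose and 5 fell, where 82.7% of all genes were called, 40.9% higher and 41.8% lower. Without the same 4 genes, whose direction the filter favours here too, 8 of 13 rose and 3 fell. The median was 0.37 in the list and -0.01 over all genes. Among the highest were Slc4a1 (log2 10.10 ± 0.09), Aqp3 (3.62 ± 0.07) and Slc16a10, an aromatic amino acid transporter (1.94 ± 0.03). The lowest were Slc9a3r1 (log2 -2.61 ± 0.07), Slc26a1 (-2.30 ± 0.13), Slc16a1 (-1.29 ± 0.05) and Aqp11 (-0.94 ± 0.08).

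With TMG over Ctrl, Rhag was the 1 gene of 17 called (5.88%, where 5.15% of all genes were called), and it rose. Rhag had 175 ± 8.61 CPM in TMG and 154 ± 2.97 CPM in Ctrl (log2 0.18 ± 0.05, edgeR adjusted p = 0.0262). With TMG_E2 over E2 3 rose and 1 fell (17.6% and 5.88%), where 5.61% of all genes were higher and 7.14% lower. Aqp9, a channel for water and small solutes, rose by log2 0.44 ± 0.10 (edgeR adjusted p = 0.00932), Aqp3 by 0.22 ± 0.05 (0.00930) and Slc16a10 by 0.11 ± 0.03 (0.0289). Slc4a1 fell to 1822 ± 147 CPM in TMG_E2, against 2226 ± 108 CPM in E2 (log2 -0.29 ± 0.05, edgeR adjusted p = 0.00144). The TMG_E2 replicates differed most among themselves, and these calls were not repeated in the alternative settings. With only the groups compared, 472 genes were called in TMG_E2 over E2, against 1055. The median was 0.03 in TMG over Ctrl and -0.0090 in TMG_E2 over E2, where the medians of all genes were 0.0028 and 0.00039. None of the 17 was called in the interaction, where 0.931% of all genes were, so the count says nothing about the list. Rhd had the smallest adjusted p there (log2 -0.46 ± 0.12, edgeR adjusted p = 0.107). The list was drawn up with earlier results of these data known, among them those of Slc4a1.

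**Figure D5:**
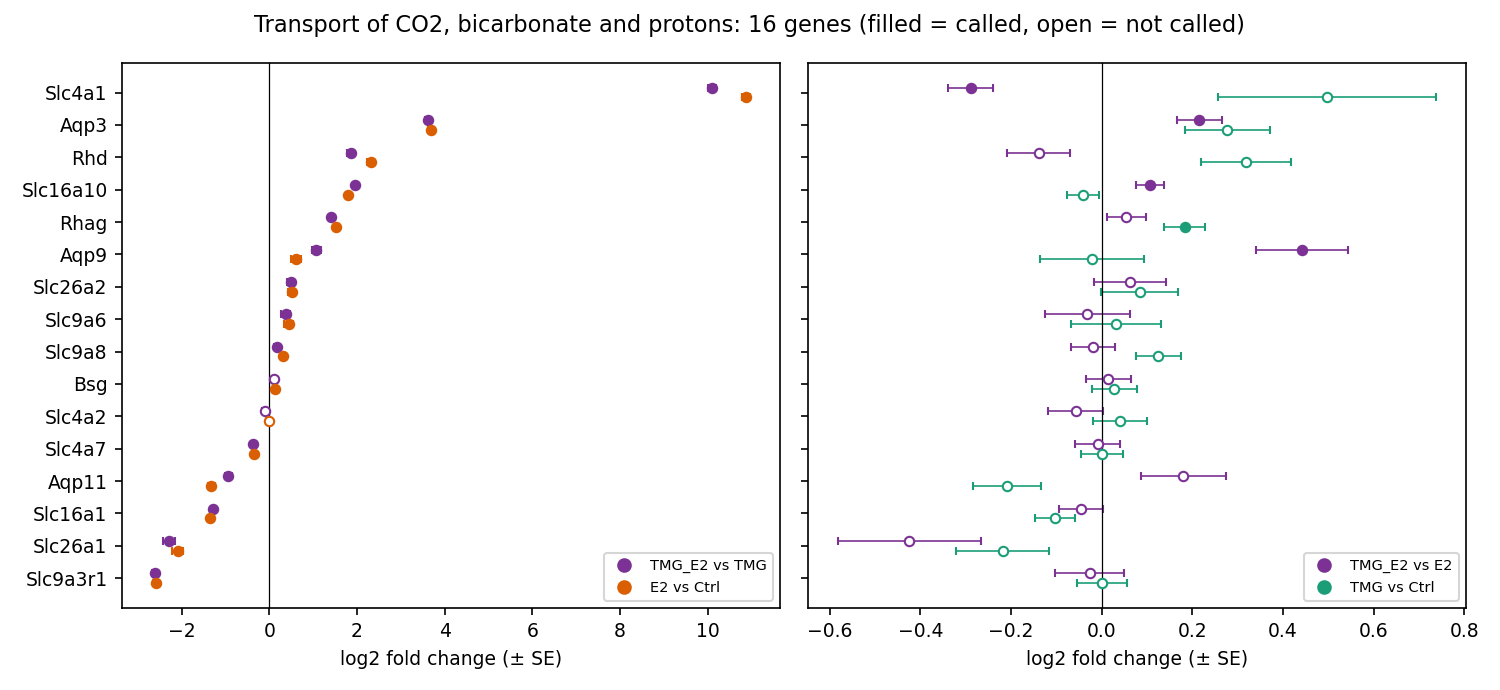
Log2 fold change ± SE of 16 of the 17 transport genes that passed the filter, for E2 (left) and TMG (right), with filled points for called genes and open points for the others. With E2 the values run from -2.61 for Slc9a3r1 to 10.88 for Slc4a1, and with TMG from -0.42 for Slc26a1 in TMG_E2 over E2 to 0.50 for Slc4a1 in TMG over Ctrl, neither of them called there.

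The genes nearest to each member in pattern were taken by the root mean square distance of centred log2 CPM over the 12 libraries, among 8271 genes. Being picked as the nearest, they lie below the median distance by selection. For Car1 they were Vim, Sall2, Fgf15, Scd1 and Plp2, at 0.53 to 0.71 log2 units, where the median gene was at 3.15. Vim, which encodes the intermediate filament protein vimentin, was at log2 -5.42 in E2 over Ctrl. Scd1, a fatty acid desaturase, was at -5.10. For Car2 the nearest genes were Akap8l, H2-T23, Slc39a8, Sec61g and Adipor1, at 0.057 to 0.064 log2 units, where the median gene was at 0.60. Slc39a8, a zinc importer, was at log2 1.31 in E2 over Ctrl.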

How the data were processed

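Poly(A) RNA was sequenced in 12 libraries, grouped by sample titles. Per the series design text and the submitters' processing notes, the authors aligned reads to GRCm38 and quantified genes with RSEM 1.2.22. The deposited expected counts are RSEM estimates, not scaled for depth. The deposited TPM values were scaled by the authors for length and depth and were used only to compare levels between genes. The strand setting of the counting was not given. Bowtie2 is named there without a role.

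Expected counts were rounded and fitted with edgeR 4.0.16 in R 4.3.3 (quasi-likelihood, two-sided, TMM scaling, a mean per group, all 12 libraries), keeping genes with CPM over 10 in at least 2 libraries, as in the design text. P-values were adjusted by Benjamini-Hochberg across all 8273 kept genes and called under 0.05. CPM values are TMM-scaled. The SE comes from the F statistic. Ratios of few counts carry exact conditional 95% intervals for counting error only. The fit was also run on simulated counts with the same spread setting for all genes and libraries and no pairing of replicates. That run does not cover the pairing or the larger spread of TMG_E2 described below.

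The members and lists were chosen with earlier results of these data known. Named genes are the members, other carbonic anhydrases reaching 1 CPM, the 4 highest and 4 lowest called transport genes of each comparison, neighbours within 500 kb that passed the filter, and the 5 nearest genes to a member, except that 1 transport gene is not reported here by name; Rhag in E2 over Ctrl, Slc4a2, Aqp1, the neighbours that did not pass and the smallest interaction were named after their values were seen. Alternatives were RLE size factors, library size alone, no filter, filterByExpr, DESeq2 1.42.0, only the groups compared, a replicate block, and leaving out each library. Same-numbered libraries deviated together in E2 vs Ctrl (correlations 0.107 to 0.281), TMG_E2 vs TMG (0.139 to 0.545) and TMG_E2 vs E2 (0.160 to 0.251), so by this check the numbers pair the libraries there; no label states a shared day or batch. The values reported are from the fit without the block. Replicate counts differed beyond sampling noise, so none was counted as a duplicate. The chi-square for each degree of freedom was 8.66 to 13.1 in TMG_E2 and 2.41 to 4.17 in the other groups. The fit of all 12 libraries shares its estimate of the spread among groups, so it may understate that of TMG_E2. No promoter or protein sequence of Car1, Car2, Car3 or Car13 was used here.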

Additional observations from a re-analysis of the deposited data

How the results depend on the processing

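For E2 the fold changes of Car1 and Car2 kept their direction under all 13 alternatives. Library size alone lowered Car2 beyond its replicate SD, to log2 1.14 for E2 over Ctrl and 0.96 for TMG_E2 over TMG, and moved the median of all genes by -0.10. Without 1 library, Car2 in TMG over Ctrl was 0.17 to 0.23 and in TMG_E2 over E2 -0.0092 to 0.046, and it was -0.0034 with library size alone; the cause was not tested. The replicate block changed no call of a member: Car2 in TMG over Ctrl was at 0.19 (adjusted p = 0.00235). In that comparison same-numbered libraries had correlations of 0.0251 to 0.166, and 5 of 6 libraries correlated best with their own number. All 6 libraries did so in each of E2 vs Ctrl, TMG_E2 vs TMG and TMG_E2 vs E2. Those comparisons join all 4 groups by number, TMG and Ctrl included. Whether the numbers pair TMG with Ctrl was not tested further. Genes called in TMG over Ctrl were 426, against 675 with the block, 749 with only the groups compared and 196 to 257 without 1 library. In TMG_E2 over E2 they were 1055, against 1454 with the block, 472 with only the groups compared and 656 to 1160 without 1 library. In the interaction they were 77, against 178 with no filter, 48 with filterByExpr, 171 with the block and 18 to 161 without 1 library. Car1 did not pass the filter of TMG_E2 and E2 libraries alone, so that fit gave no value. At 17 to 29 counts with E2, depth limits what Car1 can show there, and Car3 and Car13 allow counting intervals at best.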

Other observations

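The isoform-weighted transcript length deposited for Car1, which moves when the mix of its annotated transcripts moves, was 1184 to 1196 bases in TMG_E2 libraries and 1196 bases in E2 libraries. It was close to 1196 bases in all TMG and Ctrl libraries. The lowest value, in TMG_E2 replicate 1, rested on 18 counts.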
